A study of Mus musculus with 10 samples.

Results

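Smooth muscle and pericyte genes, 9 of the 56748 gene identifiers in the count tables, were followed in whole mouse hearts after forced treadmill training. They were chosen by name as the genes commonly used to mark the mural cells of blood vessels, and their Ensembl identifiers were matched to symbols with the GENCODE annotation. Acta2, Tagln, Myh11, Cnn1 and Smtn make up the 5 contractile smooth muscle genes, and Rgs5, Abcc9, Cspg4 and Mcam the 4 pericyte genes. RNA was sequenced from the hearts of 5 wild-type C57BL/6 mice that had trained for 8 weeks with 5 sessions a week of 120 min each at 15 m/min, and of 5 untreated sedentary wild-type mice of the same age, with 1 library per heart. The mice were 8 weeks old when bought, rested for at least 2 weeks, and those of the training group were accustomed to the treadmill for 1 week from 10 m/min upwards. Whole hearts with both atria and the ventricles were homogenized, so each library mixes all cell types of the organ, and the running was forced and not voluntary. Between 29461697 and 35945417 reads were counted on genes in the training hearts, and between 35196993 and 39431030 in the sedentary hearts.

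Mural cells surround the endothelium of blood vessels. Smooth muscle cells wrap arteries, arterioles and veins and carry a contractile apparatus of smooth muscle actin, smooth muscle myosin and calponin, whereas pericytes sit on capillaries within the endothelial basement membrane. The contractile genes are driven by serum response factor and its coactivator myocardin, which act at CArG boxes in the promoters of many of these genes, and pericytes are kept on the endothelium by PDGF-B acting on PDGF receptor beta. In the heart, these genes mark the coronary vessel wall, and some of them are also used by other cells, such as Acta2 by myofibroblasts and Abcc9 by cardiomyocytes.

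The contractile genes did not change as one group. Tagln and Cnn1 were higher after training, 1.45-fold and 1.69-fold by the group means, while Acta2 and Smtn were at 0.953 and 0.946 of the sedentary means and Myh11 was 1.28-fold of it without passing the test. Among the pericyte genes, Rgs5 was lower, at 0.880 of the sedentary mean, and Abcc9, Cspg4 and Mcam did not pass the test. Of the 9 genes, 2 were therefore called higher, 1 lower and 6 neither, at an adjusted p below 0.1 in the quasi-likelihood test of edgeR, adjusted by Benjamini-Hochberg over all 15454 genes tested. All 9 passed the filter on low counts. By the same rule, 7.01% of all genes tested were called, 2.75% higher and 4.26% lower. The counts by class were 2 of 5 contractile genes called higher and 1 of 4 pericyte genes called lower. The median log2 fold change, training minus sedentary, was 0.35 for the contractile genes, 0.04 for the pericyte genes and 0.00026 for all genes tested. When each heart was left out in turn, the contractile median ranged from 0.26 to 0.46, and the pericyte median from 0.014 without sedentary heart 1 to 0.093 without sedentary heart 5. With the level of atrial marker genes as a covariate in the edgeR fit, none of the 9 genes and 0.479% of all genes were called, and the log2 fold changes of Tagln, Cnn1 and Rgs5 were 0.41, 0.34 and −0.06. Their standard errors went from 0.145 to 0.200, from 0.223 to 0.266 and from 0.0545 to 0.0579. All 10 atrial marker genes were themselves above 0 in log2 fold change, so the covariate overlaps with the groups. Whether the atrial level accounts for the calls was not tested. In RNA from a whole organ, a change in the number of cells of a type and a change in the RNA per cell cannot be told apart.

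**Figure D1:**
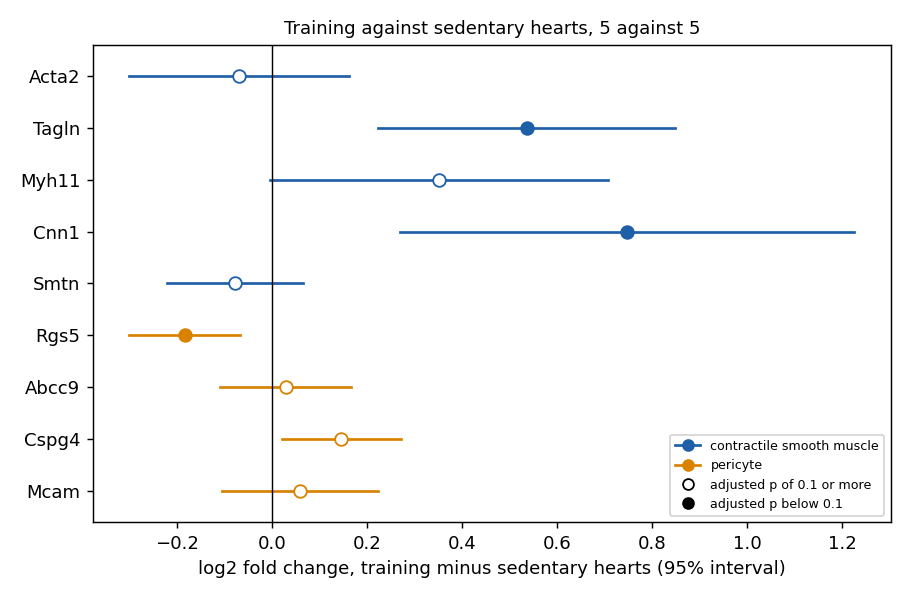
Log2 fold change of each gene, training minus sedentary hearts (5 against 5), on the horizontal axis, with the 95% interval of the edgeR fit as a line. Filled points mark an adjusted p below 0.1: Tagln (0.54) and Cnn1 (0.75) lie above 0 and Rgs5 (−0.18) below it, while the intervals of Acta2, Myh11, Smtn, Abcc9 and Mcam include 0.

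Promoter sequences are shown for a contractile gene that was not called, the contractile gene with the largest fold change and the pericyte gene that was called, since they show how differently the starts of these genes read. The sequences come from RefSeq on GRCm38.p6, a different build from the GRCm39 of the counts, and cover the 250 bases before the start of transcription. The table used held 7 of the 9 genes, and Tagln and Myh11 were not among them. Capitals mark 2 kinds of motif, searched on both strands: the CArG box with 1 G or C in its A/T core, and the MCAT element (CATTCC, or GGAATG on the other strand), which is bound by TEAD factors. The promoter of Acta2 is at chr19:34255374-34255623 on the minus strand, that of Cnn1 at chr9:22099003-22099252 on the plus strand and that of Rgs5 at chr1:169655251-169655500 on the plus strand.
Acta2: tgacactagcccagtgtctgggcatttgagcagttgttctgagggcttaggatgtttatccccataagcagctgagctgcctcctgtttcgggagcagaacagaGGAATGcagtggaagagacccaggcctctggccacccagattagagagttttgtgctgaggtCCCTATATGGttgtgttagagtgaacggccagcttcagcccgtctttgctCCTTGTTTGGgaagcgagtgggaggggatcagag
Cnn1: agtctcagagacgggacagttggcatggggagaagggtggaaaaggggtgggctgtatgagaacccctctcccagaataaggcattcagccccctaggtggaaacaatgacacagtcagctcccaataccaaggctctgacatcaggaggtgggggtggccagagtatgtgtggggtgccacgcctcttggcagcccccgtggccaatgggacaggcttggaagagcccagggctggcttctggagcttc
Rgs5: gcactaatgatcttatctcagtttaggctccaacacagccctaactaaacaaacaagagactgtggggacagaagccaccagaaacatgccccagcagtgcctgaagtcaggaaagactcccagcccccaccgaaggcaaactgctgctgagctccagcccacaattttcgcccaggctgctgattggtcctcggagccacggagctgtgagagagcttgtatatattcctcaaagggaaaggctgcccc
A CArG box with 1 G or C in the core was found in 7.24% of the 32851 promoters of the table, and 0.548% held at least 2 of them. Acta2 held 2, CCCTATATGG from 84 to 75 bases and CCTTGTTTGG from 34 to 25 bases before the start, and 1 MCAT element from 146 to 141 bases before it. The MCAT element was in 12.6% of all promoters, and Smtn and Abcc9 held 1 each. A CArG box with a pure A/T core, in 1.47% of all promoters, was found in none of the 7 genes. Cnn1, Rgs5, Cspg4 and Mcam held neither motif in this window. A match of letters is a description of the sequence and not a measured binding site, and its absence says nothing about the factor.

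Acta2 encodes the smooth muscle alpha actin of the thin filament (ENSMUSG00000035783, chromosome 19 of GRCm39, 34217737 to 34232990, minus strand). Its level was 109, 149, 169, 163 and 129 CPM (reads counted, scaled to a common library size) in training hearts 1 to 5. In sedentary hearts 1 to 5 it was 143, 136, 167, 136 and 171 CPM. The groups overlapped, although training hearts 1 and 5 were below every sedentary heart, and training heart 1 was the lowest of the 10. Means were 144 ± 24.7 CPM after training and 151 ± 17.1 CPM in sedentary hearts (SD, n = 5 each), and the log2 fold change was −0.07 with a 95% interval from −0.30 to 0.16 (edgeR quasi-likelihood test, Benjamini-Hochberg adjusted p = 0.777). The sign turned without training heart 1, to 0.016. Acta2 shares much of its coding sequence with the other muscle actins, so reads that match more than 1 actin gene were not counted. Acta1 and Actc1, the skeletal and cardiac alpha actin genes, were both lower after training, with log2 fold changes of −0.84 and −0.38 (edgeR, adjusted p = 0.0935 and 0.0220). Actc1 stood at 8022 ± 849 CPM after training and 10470.0 ± 858 CPM in the sedentary hearts.

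Tagln encodes transgelin, an actin-binding protein of smooth muscle that is also called SM22 alpha (ENSMUSG00000032085, chromosome 9, 45840909 to 45847404, minus strand). It was at 47.5, 48.8, 67.6, 72.6 and 57.9 CPM in training hearts 1 to 5. The sedentary hearts 1 to 5 held 47.2, 35.1, 45.8, 28.5 and 46.4 CPM. Every training heart was above every sedentary heart, although training hearts 1 and 2 were above the highest sedentary heart by little. Tagln was the only 1 of the 9 genes whose groups were separated in this way, as were those of 5.06% of all genes tested, 2.12% upwards and 2.94% downwards. The means were 58.9 ± 11.2 and 40.6 ± 8.38 CPM (SD, n = 5 each), and the log2 fold change was 0.54 (standard error 0.145, 95% interval 0.22 to 0.85, edgeR quasi-likelihood test, Benjamini-Hochberg adjusted p = 0.0618). The call was lost without training heart 3, 4 or 5 and without sedentary heart 2 or 4, where the log2 fold change was 0.43 to 0.54 and the adjusted p in edgeR 0.103 to 0.145. It was also lost with the atrial marker covariate, at 0.41 (edgeR, adjusted p = 0.477), and with counts of both strands, at 0.45 (edgeR, adjusted p = 0.207), where Tagln kept 13 to 28 counts per heart. The lncRNA gene Gm48529 runs on the opposite strand over 60.7% of the exon bases of Tagln, so reads were taken from the strand the library kit reads. Its close relative Tagln2 had a log2 fold change of 0.07 and was not called (edgeR, adjusted p = 0.597).

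Cnn1 encodes basic calponin, which binds actin and tropomyosin in smooth muscle cells (ENSMUSG00000001349, chromosome 9, 22010512 to 22020926, plus strand). Training hearts 1 to 5 were at 7.78, 10.3, 18.4, 15.7 and 12.9 CPM. Sedentary hearts 1 to 5 were at 10.1, 4.93, 9.00, 6.17 and 8.36 CPM. Of the training hearts, 4 were above every sedentary heart, and training heart 1 lay within the sedentary range. The means were 13.0 ± 4.22 and 7.72 ± 2.12 CPM (SD, n = 5 each). The log2 fold change of 0.75 was the largest of the 9 (standard error 0.223, 95% interval 0.27 to 1.23, edgeR quasi-likelihood test, Benjamini-Hochberg adjusted p = 0.0829). Cnn1 rested on fewer reads than the others, 169 to 688 counts per heart, and its SD was 32.5% of the mean in the training hearts. The call held when training heart 1 or 2 or sedentary heart 1 was left out and was lost in each of the 7 other fits without 1 heart, with log2 fold changes of 0.59 to 0.81 and an adjusted p of up to 0.196 in edgeR. With the atrial marker covariate it was 0.34 and not called (edgeR, adjusted p = 0.690). The calponin genes Cnn2 and Cnn3, which are not restricted to smooth muscle, had log2 fold changes of −0.09 and −0.02 and were not called (edgeR, adjusted p = 0.521 and 0.880).

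Myh11, the smooth muscle myosin heavy chain gene, is the most restricted to smooth muscle of the contractile genes (ENSMUSG00000018830, chromosome 16, 14012399 to 14109236, minus strand). It was at 56.4, 61.9, 89.3, 94.3 and 79.5 CPM in training hearts 1 to 5 and at 67.9, 45.3, 64.1, 44.7 and 76.7 CPM in sedentary hearts 1 to 5. Training hearts 3, 4 and 5 were above all sedentary hearts, and training hearts 1 and 2 were within their range. The log2 fold change was 0.35 (standard error 0.165, 95% interval −0.004 to 0.71, edgeR quasi-likelihood test, Benjamini-Hochberg adjusted p = 0.254). It stayed above 0, from 0.26 to 0.46, when each of the 10 hearts was left out in turn, and was called in none of these fits. Myh9 and Myh10, the nonmuscle myosin heavy chain genes, had log2 fold changes of −0.0062 and 0.16 and were not called (edgeR, adjusted p = 0.982 and 0.165).

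Smtn encodes smoothelin, an actin-associated protein of fully differentiated smooth muscle cells (ENSMUSG00000020439, chromosome 11, 3467520 to 3490612, minus strand). Training hearts 1 to 5 held 166, 149.7, 160.0, 171 and 171 CPM, and sedentary hearts 1 to 5 held 155, 178, 157, 173 and 201 CPM. All training hearts but heart 2 lay within the sedentary range, and the SD between training hearts was only 5.52% of their mean. The log2 fold change was −0.08 with a 95% interval from −0.22 to 0.06 (edgeR quasi-likelihood test, Benjamini-Hochberg adjusted p = 0.557). It was −0.019 without sedentary heart 5, the highest of the 10, and turned to 0.042 with the atrial marker covariate. The expected counts of RSEM, which also share out reads that match several genes, were 85.4% to 88.9% of the reverse-strand counts for Smtn.

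Rgs5, a regulator of G protein signaling and a widely used pericyte marker, was the pericyte gene that fell (ENSMUSG00000026678, chromosome 1, 169483036 to 169524887, plus strand). It was at 493, 483, 435, 501 and 516 CPM in training hearts 1 to 5. In sedentary hearts 1 to 5 it was at 512, 598, 529, 551 and 569 CPM. Training hearts 1 to 4 were below every sedentary heart, and training heart 5 was only above sedentary heart 1. The means were 486 ± 30.9 and 552 ± 33.5 CPM (SD, n = 5 each). Its log2 fold change of −0.18 had a standard error of 0.0545 (95% interval −0.30 to −0.07, edgeR quasi-likelihood test, Benjamini-Hochberg adjusted p = 0.0814). The change was small, but Rgs5 was measured precisely, with an SD of 6.37% and 6.07% of the group means. The call held without training heart 5 or sedentary heart 1 and was lost in the other 8 fits without 1 heart, with log2 fold changes of −0.20 to −0.15 and an adjusted p of up to 0.174 in edgeR. The call was also lost with the atrial marker covariate, at −0.06 (edgeR, adjusted p = 0.735), and with library totals alone as the scaling, at −0.13 (edgeR, adjusted p = 0.128). Rgs4, a related gene on the list of further pericyte genes, had a log2 fold change of −0.16 and was not called (edgeR, adjusted p = 0.291).

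Abcc9 encodes SUR2, the regulatory subunit of ATP-sensitive potassium channels of vascular and cardiac muscle (ENSMUSG00000030249, chromosome 6, 142533588 to 142648571, minus strand). Its level was 396, 397, 377, 431 and 459.6 CPM in training hearts 1 to 5 and 357, 423, 385, 415 and 439 CPM in sedentary hearts 1 to 5. The groups overlapped, and the log2 fold change was 0.03 with a 95% interval from −0.11 to 0.17 (edgeR quasi-likelihood test, Benjamini-Hochberg adjusted p = 0.854). The sign turned without training heart 5, to −0.014, and without sedentary heart 1, to −0.013, and with the atrial marker covariate the log2 fold change was 0.17 and not called. Kcnj8, which encodes the pore subunit that SUR2 pairs with in mural cells, had a log2 fold change of −0.09 (edgeR, adjusted p = 0.512) and was singled out after its value was seen.

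Cspg4 encodes the proteoglycan NG2 of the pericyte surface (ENSMUSG00000032911, chromosome 9, 56772317 to 56807187, plus strand). Training hearts 1 to 5 were at 26.9, 34.3, 32.2, 30.5 and 31.0 CPM. Sedentary hearts 1 to 5 lay close together, at 27.8, 27.1, 28.2, 27.6 and 29.4 CPM. Training heart 1 was below every sedentary heart and the other 4 were above every one of them. The log2 fold change was 0.15 (standard error 0.0581, 95% interval 0.02 to 0.27), with an unadjusted p of 0.0253 and a Benjamini-Hochberg adjusted p of 0.182 in the edgeR test. It passed the threshold without training heart 1, at 0.19, and with library totals alone, at 0.20 (edgeR, adjusted p = 0.0506 and 0.0961). Cspg4 and Rgs5, both pericyte genes, therefore had fold changes of opposite sign.

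Mcam encodes the adhesion molecule CD146, which is present on pericytes, smooth muscle cells and endothelial cells (ENSMUSG00000032135, chromosome 9, 44045504 to 44054025, plus strand). It was at 44.1, 50.3, 56.8, 54.1 and 52.2 CPM in training hearts 1 to 5 and at 47.0, 45.6, 48.9, 47.1 and 58.7 CPM in sedentary hearts 1 to 5. The highest of the 10 values was that of sedentary heart 5 and the lowest that of training heart 1. The log2 fold change was 0.06 with a 95% interval from −0.11 to 0.22 (edgeR quasi-likelihood test, Benjamini-Hochberg adjusted p = 0.728). It was 0.13 without sedentary heart 5 and 0.020 without training heart 3, and was called in neither fit.

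**Figure D2:**
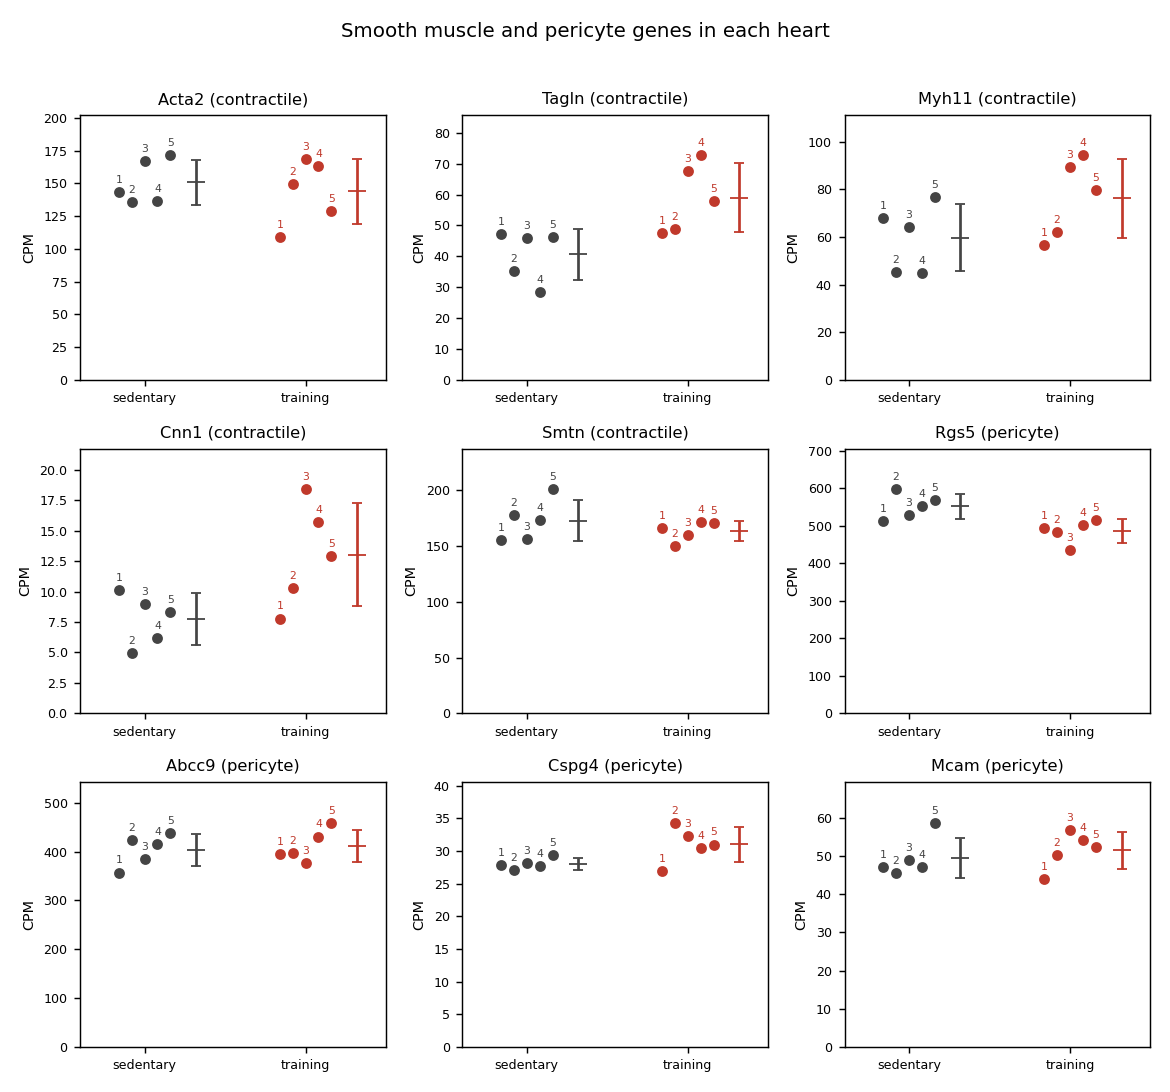
CPM of each gene in each heart (points, numbered by mouse) for 5 sedentary (grey) and 5 training hearts (red), with the mean and SD of each group beside them and every axis starting at 0. For Tagln all training hearts lie above all sedentary hearts, and for Rgs5 4 of 5 training hearts lie below all of them. For Acta2, Smtn and Abcc9 the groups overlap.

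Levels of different genes were compared per length, as CPM per kilobase of effective transcript length over all 10 hearts. The highest level was that of Rgs5, at 129.9, followed by Smtn at 102, Acta2 at 93.7, Abcc9 at 56.3 and Tagln at 53.7. Mcam was at 20.4, Myh11 at 10.8, Cnn1 at 8.36 and Cspg4 at 4.55 CPM per kilobase. Neither class was thus uniformly the more abundant. Smtn was above Acta2 in only 6 of 10 hearts and Abcc9 above Tagln in 7 of 10, so these neighbours in the order cannot be ranked, whereas each of the other neighbouring pairs kept its order in 9 or 10 of 10 hearts. Summed over the class, the contractile genes reached 456 ± 55.2 CPM after training and 432 ± 45.5 CPM in the sedentary hearts (SD, n = 5 each). The pericyte genes summed to 980 ± 60.2 and 1033 ± 65.8 CPM, of which Rgs5 was the largest share. These class sums were not divided by transcript length, and longer transcripts give more reads. They therefore compare training with sedentary hearts within a class and do not show which class was the more abundant.

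A contractile gene was set against a pericyte gene within each heart as the ratio of their counts, in which library size cancels. For Myh11 over Rgs5, the ratio was 11.4%, 12.8%, 20.6%, 18.8% and 15.4% in training hearts 1 to 5. It was 13.3%, 7.58%, 12.1%, 8.11% and 13.5% in sedentary hearts 1 to 5. Training hearts 3, 4 and 5 were above all sedentary hearts, and hearts 1 and 2 were inside the sedentary range. The mean log2 ratio was −2.70 ± 0.358 after training and −3.24 ± 0.402 in the sedentary hearts (SD, n = 5 each), a difference of 0.54 that did not pass (exact two-sided permutation test, p = 0.0794, where the smallest p that 5 against 5 hearts allow is 0.00794). When each heart was left out in turn, the difference ranged from 0.42 without sedentary heart 2 (exact two-sided permutation test, p = 0.143) to 0.65 without training heart 1 (p = 0.0476), and only the latter of these 10 p-values was below 0.05, the others reaching up to 0.159. Among the 20 ratios of a contractile to a pericyte gene, 14 had a difference above 0, from −0.22 for Acta2 over Cspg4 to 0.92 for Cnn1 over Rgs5, with a median of 0.31. All 6 below 0 were ratios of Acta2 or Smtn. For Tagln over Rgs5 the difference was 0.73, and all 5 training hearts were above all sedentary hearts. These ratios share genes and hearts, and only that of Myh11 over Rgs5 was tested. That pair was chosen with earlier results of these data known.

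The variation of the genes between hearts of the same group crossed the classes. Over the 10 hearts, with each group centred on its mean, log2 CPM of Acta2, Tagln, Myh11 and Cnn1 went together, with a Pearson r of 0.70 to 0.95 over their 6 pairs. In these genes, training hearts 3 and 4 were above their group mean, training heart 1 and sedentary hearts 2 and 4 were below it, and training heart 2 was below it for all but Acta2. Mcam had an r of 0.83 with Acta2, 0.81 with Myh11, 0.69 with Cnn1 and 0.64 with Tagln. Cspg4 had an r of 0.73 with Acta2 and 0.65 with Mcam, and of 0.26 to 0.46 with Tagln, Myh11 and Cnn1. Smtn, by contrast, had an r of only −0.15 to 0.19 with the 4 other contractile genes, and of 0.79 with Abcc9 and 0.61 with Rgs5. Rgs5 and Abcc9 had an r of 0.85, the highest of the 6 pericyte pairs, whose median was 0.15, while Cnn1 and Rgs5 had the lowest r of all, −0.63. The 10 points of each correlation share their libraries and scaling, so these values are descriptions.

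**Figure D3:**
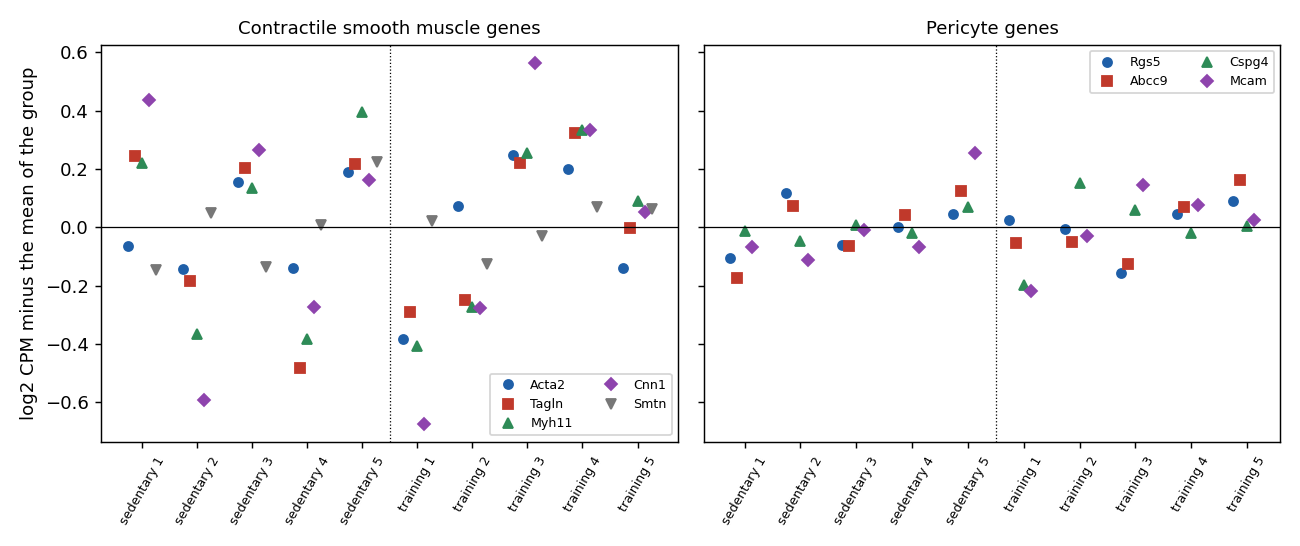
Log2 CPM of each gene in each heart minus the mean of its group (vertical axis) for the contractile genes on the left and the pericyte genes on the right, with sedentary hearts 1 to 5 and then training hearts 1 to 5 along the horizontal axis. Acta2, Tagln, Myh11 and Cnn1 lie below 0 together in training heart 1 and above it in training hearts 3 and 4, while Smtn stays close to 0 there and the pericyte genes spread less.

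The genes most like Myh11 in this centred pattern, of the 13116 genes that averaged 1 CPM or more, were Lmod1 (r = 0.97), Lrrc17 (0.96), Thap7 (0.95), Kcnab1 (0.95) and Tagln (0.95). Lmod1 encodes leiomodin 1, an actin filament nucleator of smooth muscle. Cnn1 ranked 16, Mcam 123, Acta2 248 and Smtn 4308 by the same measure. Most like Rgs5 were Pde8b (r = 0.95), Ttc4 (0.94), Cited2 (0.93), Ogdhl (0.93) and Klhl38 (0.92), none of which is on the pericyte lists used here. Abcc9 ranked 45, Smtn 825, Mcam 8508 and Cspg4 9431 by likeness to Rgs5. Ogdhl fell after training, with a log2 fold change of −0.25 (edgeR quasi-likelihood test, Benjamini-Hochberg adjusted p = 0.0231). Its r with Rgs5 was 0.76 without the 2 hearts farthest from the median. Apart from Tagln and Ogdhl, none of the 10 genes most like Myh11 or Rgs5 was called.

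Further genes of the smooth muscle cytoskeleton, 30 in number, had a median log2 fold change of 0.04. Of these, 2 were called lower (4.26% of all genes tested) and none was called higher, against 8 with an unadjusted p below 0.05 in edgeR (20% of all genes tested) and 5 called by DESeq2 (9.53% of all genes tested). Synpo2, which encodes the actin-bundling protein synaptopodin 2, fell from 196 ± 15.8 to 164 ± 11.4 CPM (SD, n = 5 each), a log2 fold change of −0.26, with all training hearts below all sedentary hearts (edgeR quasi-likelihood test, Benjamini-Hochberg adjusted p = 0.0376). Pdlim7, which encodes a PDZ and LIM domain protein of actin filaments, had a log2 fold change of −0.27 (edgeR, adjusted p = 0.0972). Both are also expressed in striated muscle. The list spread upwards to 0.71 for Susd5, a smooth muscle marker that was singled out after its value was seen and did not pass (edgeR, adjusted p = 0.116). Actg2, the gamma smooth muscle actin gene, was at 2.43 ± 0.796 and 1.55 ± 0.552 CPM, a log2 fold change of 0.64 that did not pass (edgeR, adjusted p = 0.190).

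Regulators of the contractile genes, 19 in number, included transcription factors, coactivators and signaling genes. Their median log2 fold change was −0.06, and 2 were called lower (4.26% of all genes tested) and none higher, against 4 with an unadjusted p below 0.05 in edgeR (20% of all genes tested) and 2 called by DESeq2 (9.53%). Tead3, a TEAD factor that binds MCAT elements, had a log2 fold change of −0.17, and Mrtfb, a coactivator of serum response factor, one of −0.16 (edgeR quasi-likelihood test, Benjamini-Hochberg adjusted p = 0.0778 and 0.0788). In both, all training hearts were below all sedentary hearts. Myocd, which encodes myocardin and is also expressed in cardiomyocytes, was at 39.9 ± 5.77 and 40.4 ± 3.32 CPM, a log2 fold change of −0.02, and Srf had one of −0.13. Neither passed (edgeR, adjusted p = 0.941 and 0.210), and both are named for their role and not by their change.

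Receptors through which vessels are constricted or relaxed were tested for 14 of 17 listed genes, and 3 were called, 2 higher and 1 lower, against 2.75% and 4.26% of all genes tested. Ptgir, the prostacyclin receptor gene, rose from 4.01 ± 0.956 to 5.93 ± 0.657 CPM, a log2 fold change of 0.56 (edgeR quasi-likelihood test, Benjamini-Hochberg adjusted p = 0.0512). Ptger4, the EP4 receptor gene for prostaglandin E2, rose by 0.33 on the log2 scale, and Adora2a, an adenosine receptor gene, fell by 0.42 (edgeR, adjusted p = 0.0867 and 0.0778). All 3 receptors couple to stimulatory G proteins and relax vessels, and all 3 are also found on other cells such as leukocytes. The median over the 14 genes was −0.09.

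Of 25 further pericyte genes, 1 was called lower (4.26% of all genes tested), Steap4, a metalloreductase gene. It fell from 42.0 ± 2.25 to 34.5 ± 1.71 CPM, with all training hearts below all sedentary hearts. The log2 fold change was −0.28 (standard error 0.0487, edgeR quasi-likelihood test, Benjamini-Hochberg adjusted p = 0.0120). The median of the list was −0.05, with 16 genes below 0 and 9 above. Pdgfrb and Notch3, the receptor genes that define mural cells, had log2 fold changes of −0.03 and 0.03 (edgeR, adjusted p = 0.760 and 0.820). Both are named for their role, and whether their changes differed from that of Rgs5 was not tested.

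In the signals that recruit mural cells, 2 of 18 genes were called lower, against 4.26% of all genes tested. Pdgfb, the endothelial ligand of PDGF receptor beta, had a log2 fold change of −0.22 and Tie1, an endothelial receptor of the angiopoietin system, one of −0.16 (edgeR quasi-likelihood test, Benjamini-Hochberg adjusted p = 0.0771 and 0.0765). Pdgfb was at 38.3 ± 2.11 CPM after training and 44.6 ± 4.38 CPM in the sedentary hearts, with all training hearts below all sedentary hearts. Among 13 genes of elastic fibres, which smooth muscle cells and fibroblasts lay down, Fbln5 (fibulin 5) alone was called higher (2.75% of all genes tested), with a log2 fold change of 0.26 (edgeR, adjusted p = 0.0697), and the median was 0.11.

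**Figure D4:**
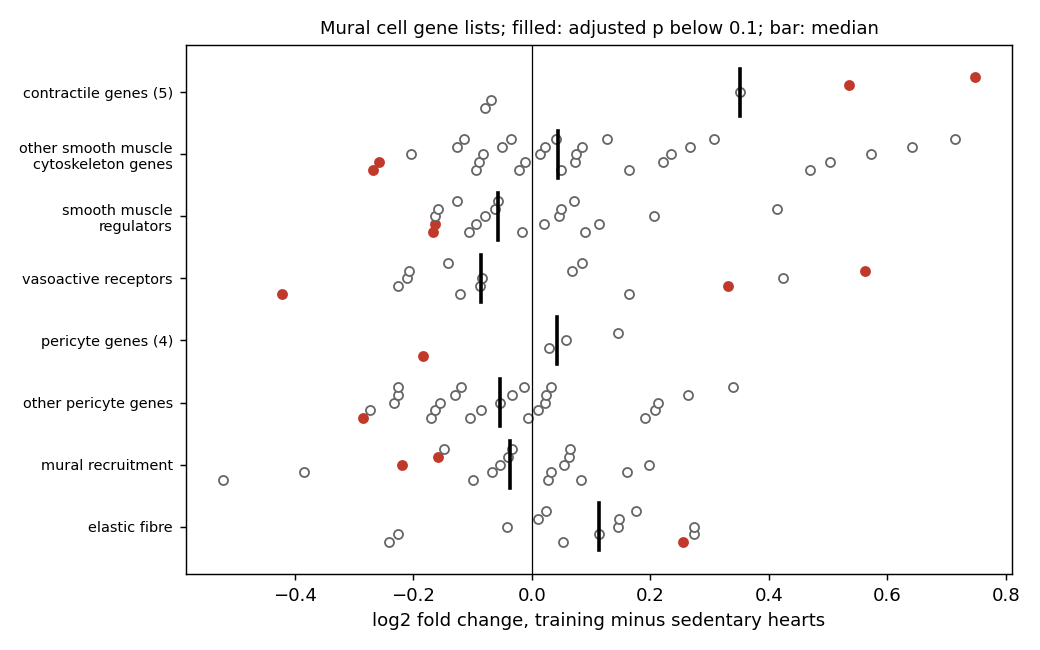
Log2 fold change, training minus sedentary hearts, of every tested gene in 8 lists (rows), with the median of each list as a bar and genes with an adjusted p below 0.1 filled in red. The contractile genes have a median of 0.35, while the medians of the other 7 lists lie between −0.09 and 0.11.

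Markers of other cell types were measured beside these genes, and their part in the changes was not tested. Fibroblast markers had 3 of 10 genes called higher (2.75% of all genes tested), which were Gsn, Lum and Pdgfra, and a median log2 fold change of 0.22. Of the 10 genes, 9 were above 0 and 1 below. They summed to 3260.0, 2944, 3894, 3445 and 3293 CPM in training hearts 1 to 5. The sums were 3089.5, 2683, 2922, 2752 and 2749.9 CPM in sedentary hearts 1 to 5. Gsn (gelsolin), the most abundant, weighed most in these sums, at 1965 ± 237 CPM after training and 1574 ± 64.3 CPM in the sedentary hearts. Of 11 myofibroblast genes tested of 12, Comp alone was called (2.75% of all genes tested were called higher), higher by 0.60 on the log2 scale (edgeR quasi-likelihood test, Benjamini-Hochberg adjusted p = 0.0161), and the median was 0.17.

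Endothelial markers had 4 of 12 genes called lower (4.26% of all genes tested), which were Fabp4, Esam, Flt1 and Tie1, and a median log2 fold change of −0.09. The 12 genes did not move as one, with 8 below 0 and 4 above, from −0.24 to 0.26. Their sum was 1564, 1598, 1615, 1649.5 and 1626 CPM in training hearts 1 to 5. It was 1767, 1754, 1737, 1726 and 1707 CPM in sedentary hearts 1 to 5, so that all training hearts were lower in the sum. Fabp4, a fatty acid binding protein gene of capillary endothelium, was the most abundant. It weighed most in the sum, at 395 ± 27.4 CPM after training and 466 ± 22.5 CPM in the sedentary hearts. Cardiomyocyte markers had 2 of 10 genes called lower, Actc1 and Ckm, against the same share of all genes, a median of −0.11, and sums of 67242 ± 2225 and 73850 ± 3563 CPM (SD, n = 5 each), with Myh6 the most abundant. In this sum 4 of 5 training hearts were below every sedentary heart.

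Atrial markers, genes expressed mainly in atrial cardiomyocytes, were above 0 in log2 fold change for all 10 genes, with 3 called higher (Sln, Dkk3 and Kcnj3, against 2.75% of all genes tested) and a median of 0.44. The sums were 6658, 5781, 8082, 7057 and 5450.3 CPM in training hearts 1 to 5 and 7230.4, 3059, 4944, 5192 and 3126 CPM in sedentary hearts 1 to 5, with Nppa the most abundant. Training heart 3 was the highest of its group in the atrial sum, Cnn1 and Acta2, heart 1 was in the middle in the atrial sum and the lowest in Acta2, Tagln, Myh11 and Cnn1, and heart 5 was the lowest in the atrial sum and in the middle in Tagln, Myh11 and Cnn1. Among the sedentary hearts, heart 1 was the highest in the atrial sum, Tagln and Cnn1, heart 2 was the lowest in the atrial sum, Acta2 and Cnn1, and heart 5, with the next lowest atrial sum, was the highest in Acta2 and Myh11.

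**Figure D5:**
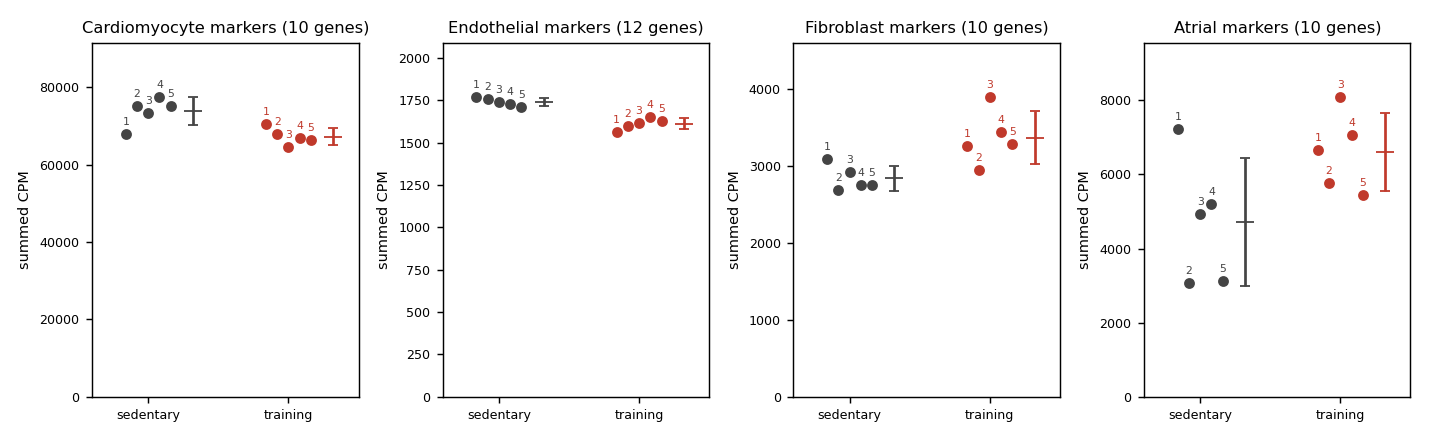
Summed CPM of the cardiomyocyte, endothelial, fibroblast and atrial markers in each heart (points, numbered by mouse) for 5 sedentary (grey) and 5 training hearts (red), with the mean and SD of each group and every axis starting at 0. All training hearts lie below all sedentary hearts in the endothelial sum, 4 of 5 lie above all sedentary hearts in the fibroblast sum, and the atrial sums range from 3059 to 8082 CPM.

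In the remaining marker lists, none of the 8 epicardial, 10 macrophage, 6 Schwann cell and 6 adipocyte genes tested was called by edgeR or by DESeq2, and 2 Schwann cell genes alone had an unadjusted p below 0.05. Their medians were 0.11, −0.08, 0.14 and 0.74. The adipocyte sum, led by Cfd, varied from 18.1 to 172 CPM between hearts. Skeletal muscle was hardly present, since Myh1 and Myh4 reached at most 4 and 2 counts in any heart and were at 0 in 5 hearts each. Of the 4 skeletal muscle genes tested, Acta1, which the heart also expresses, was called lower, as given above (4.26% of all genes tested were called lower). Of 5 genes of the fetal cardiac program, 1 was called higher and 1 lower, against 2.75% and 4.26% of all genes tested. Myh7, the beta myosin heavy chain gene, rose by 1.20 on the log2 scale (edgeR quasi-likelihood test, Benjamini-Hochberg adjusted p = 0.00871). Acta1 was the gene called lower. The other 3 were not called, and the median over the list was 0.30.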

How the data were processed

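RNA of 10 whole mouse hearts was sequenced as directional poly-A libraries with single reads of 100 bases. Reads were aligned by the authors to GRCm39 with STAR 2.7.10a, and the deposited counts are its raw numbers of uniquely mapped reads per gene, for each strand and for both. They also deposited expected counts from RSEM 1.3.3, with effective gene lengths. Neither kind was normalized, and RSEM's strand setting is not given in the sources used here. Counts of the reverse strand were used, a median of 95.4% of those on the 2 strands. Lines that are no gene were left out, among them multimapping reads (17.9% to 19.2% of reads) and reads on no gene (4.15% to 4.89%). GENCODE M39 gave symbols for 56017 of 56748 identifiers, and 1 listed receptor symbol, Olfr558, had no match.

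Groups came from the sample labels. R 4.3.3 and edgeR 4.0.16 were used with filterByExpr, TMM, the quasi-likelihood test and Benjamini-Hochberg adjustment, and genes were called at an adjusted p below 0.1. CPM use TMM-corrected library sizes, and a prior count of 2 was added where logarithms of CPM were taken. Intervals of fold changes are 95% intervals between hearts. Pairs of libraries within a group differed by more than counting noise (chi-square per degree of freedom 6.15 to 28.0). In simulated data with 15303 genes, 100 tested genes were changed by 0.5 and 98 by 1 on the log2 scale. There edgeR recovered 70.0% of the former and 91.8% of the latter, and 10.6% of its calls were unchanged genes. Noise was drawn for each gene on its own, without variation shared between genes, so these rates describe the simulated setting and not the hearts.

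The genes, lists and tests were chosen with earlier results of these data known. Named were the 9 genes, up to 4 called genes per list with the largest change, the most abundant gene of the marker lists, close paralogs, and the 5 genes most like Myh11 or Rgs5. Genes said in the text to be singled out or named for their role were chosen after their values were seen. The lists were hand-written, and some genes are in more than 1 list.

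Alternatives were DESeq2 1.42.0, other scaling and filters, RSEM expected counts rounded to whole numbers, counts of both strands, no mitochondrial DNA genes, the mouse number as a block, an atrial marker score as a covariate, an adjusted p below 0.05, and each heart left out.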

Additional observations from a re-analysis of the deposited data

Results flagged for a closer look

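Mcam in sedentary heart 5 stood apart from its group. It was at 58.7 CPM, against 45.6 to 48.9 CPM in the 4 other sedentary hearts, and the gap to the nearest of them was 0.750 of the range of the group, above the critical value of 0.71 for 5 samples. It was the only 1 of 24 groups of hearts tested that had such a value, and chance gives about 1 in 20.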

How the results depend on the processing

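With a covariate for the atrial marker score, the count of all genes called went from 1084 to 74, that of the contractile genes from 2 to 0 and that of the pericyte genes from 1 to 0, the median of the contractile genes from 0.35 to 0.23 and of the pericyte genes from 0.04 to 0.13, and the log2 fold change of Smtn turned to 0.042; the cause was not tested. At an adjusted p below 0.05, 505 of all genes, 0 contractile and 0 pericyte genes were called. With counts of both strands 1 contractile gene was called, Cnn1, since Tagln kept only 0.943% to 1.64% of its counts, 13 to 28 per heart, when reads over opposite genes are left out (log2 fold change 0.45, edgeR adjusted p = 0.207). With library totals alone, the median of all genes moved by 0.05, the median of the pericyte genes to 0.099, the split to 1029 higher and 339 lower, Rgs5 lost its call at −0.13 (edgeR adjusted p = 0.128) and Cspg4 gained one at 0.20 (edgeR adjusted p = 0.0961). DESeq2 called 9.53% of all genes and the same number of contractile and pericyte genes.

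Leaving out each heart in turn gave 512 to 1490 genes called, 0 to 2 contractile and 0 to 1 pericyte genes, medians of 0.26 to 0.46 for the contractile and 0.014 to 0.093 for the pericyte genes, and differences of the Myh11 to Rgs5 ratio of 0.42 to 0.65. The lowest count of all genes came without training heart 4 or sedentary heart 3. The 1 pericyte call was Cspg4 and not Rgs5 without training heart 1. Acta2 turned to 0.016 without training heart 1, of a range from −0.13 to 0.016, and Abcc9 to −0.014 without training heart 5 and −0.013 without sedentary heart 1, of a range from −0.014 to 0.060. The cause of these changes was not tested.

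With the mouse number as a replicate block, 1137 genes, 2 contractile and 1 pericyte genes were called, with medians of 0.36 and 0.04, the Myh11 to Rgs5 difference was 0.54, and no call of the 9 genes changed. The numbers were not taken as pairs, as the deviations of hearts with the same number had correlations of −0.097 to 0.16. Of the 9 genes, Cnn1 had the fewest counts, 169 in its lowest heart.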
